A study of Mus musculus with 40 samples.

Results

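Transcripts of 8 matrix metalloproteinases (MMPs), of their inhibitor Timp1 and of the lysyl oxidase Lox were examined in CT26 tumors. The 10 genes were taken by symbol (Mmp2, Mmp3, Mmp8, Mmp9, Mmp10, Mmp12, Mmp13, Mmp14, Timp1 and Lox) from a count table of 54087 genes. A filter on low counts kept 14760 genes, 9 of the 10 among them, and left out Mmp10. The study asked how mAbs against GARP:TGF-β1, a complex from which regulatory T cells release active TGF-β1, act on tumors alone and together with PD-1 blockade. BALB/c mice of 6 to 12 weeks of age received 1000000 CT26 cells, a colon carcinoma line of that strain, under the skin. They were given mAbs into the peritoneum on days 6, 9 and 12, and a fragment of each tumor was collected on day 13 for stranded mRNA sequencing.

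The 40 mice formed 8 groups of 5. The control group received mIgG2a - Isotype control (the mAb motavizumab). Single treatments were anti-GARP:TGFb WT (clone 58A2 as an mIgG2a), anti-GARP:TGFb FcD (the same clone with an Fc-dead region that does not bind Fcγ receptors), anti-TGFb (clone 1D11, which neutralizes TGF-β whatever its source) and anti-PD1 FcS (an Fc-silent mAb). The remaining groups received anti-PD1 FcS together with anti-GARP:TGFb WT (the WT combination), with anti-GARP:TGFb FcD (the FcD combination) or with anti-TGFb (the anti-TGFb combination). All mice carried the same transplanted cell line, so each tumor was a mixture of CT26 cells and host cells.

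MMPs are zinc-dependent proteases that cut collagens, elastin, proteoglycans and many signaling proteins, and most are secreted as inactive proenzymes. Tissue inhibitors of metalloproteinases such as Timp1 bind the active enzymes, while Lox oxidizes lysines of collagen and elastin so that fibers become cross-linked. In tumors these products come from fibroblasts, macrophages, neutrophils and the cancer cells themselves, and TGF-β is known to act on the transcription of several of the genes.

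Mmp13, Mmp12, Mmp3, Mmp10 and Mmp8 lie in a cluster of 296 kb on chromosome 9 (GRCm38). Promoters of 7 of the 10 genes were found in the RefSeq table (GRCm38.p6), with 8 transcription starts since Mmp12 had 2. An AP-1 site, the binding sequence of Fos and Jun proteins that is known from inducible MMP promoters, was searched as TGANTCA on both strands in the 250 bases before each start. It was found before 4 of the 8 starts, each in the cluster, and in 6.75% of the 32851 promoters of the table. The 150 bases before these 4 starts are shown, all on the plus strand of chromosome 9 and with the AP-1 match in capitals, because they are the members of the cluster that carry the motif and Mmp12 and Mmp13 varied most closely together among tumors.
Mmp13, chr9:7272364-7272513: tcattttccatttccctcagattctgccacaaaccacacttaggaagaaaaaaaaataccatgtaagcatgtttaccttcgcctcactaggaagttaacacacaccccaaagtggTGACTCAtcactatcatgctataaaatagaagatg
Mmp12 (second start), chr9:7347224-7347373: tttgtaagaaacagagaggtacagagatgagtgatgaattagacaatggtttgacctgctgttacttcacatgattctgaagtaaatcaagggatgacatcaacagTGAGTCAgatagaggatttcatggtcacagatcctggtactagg
Mmp3, chr9:7445672-7445821: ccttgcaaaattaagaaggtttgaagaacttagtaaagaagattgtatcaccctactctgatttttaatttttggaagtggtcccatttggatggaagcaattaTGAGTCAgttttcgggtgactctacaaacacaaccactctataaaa
Mmp10, chr9:7502192-7502341: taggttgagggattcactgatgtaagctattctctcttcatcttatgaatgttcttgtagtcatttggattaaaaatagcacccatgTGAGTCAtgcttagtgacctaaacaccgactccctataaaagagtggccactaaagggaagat
All motifs were searched on both strands. The AP-1 match began 35, 44, 46 and 63 bases before the start in the order shown. TATAAA occurred before the starts of Mmp13, Mmp3 and Mmp10, where 12.4% of all promoters held it, and AGGAAG, a core of ETS factor sites, before those of Mmp13, Mmp12 (first start), Mmp3, Mmp8, Mmp14 and Timp1, where 29.5% did. The TGF-β inhibitory element, searched by its consensus, was in none of the 8 windows and in 4.15% of all promoters. These are matches of letters and not measured sites. Among tumors, with group means subtracted, Mmp3, which has an AP-1 match, had a Pearson r of 0.19 with Mmp12 and -0.15 with Mmp13. Mmp8, which has none, had 0.64 and 0.45. A part of the motif in these relations was not tested.

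The libraries held from 11931730 to 20680548 counted reads, with a median of 14030511. Levels are given as CPM, the counts of a gene scaled to a common library size, after TMM normalization. Libraries 41 to 60 held the Y-linked transcript Ddx3y (91 to 428 counts) and libraries 61 to 80 held Xist (784 to 12701 counts), and each group had 2 or 3 mice in each range of 20. Mice are called by the library number of their label. Some tumors stood apart in transcripts of other cells. Library 48 (anti-TGFb) and library 47 (anti-PD1 FcS) had the highest sums of 9 fibroblast markers, 5703 and 4328 CPM against a median of 2333 CPM over all mice. Library 48 also had the highest sum of 5 adipocyte markers, 761 CPM against a median of 67.5 CPM. Library 71 (FcD combination) was second in these at 682 CPM, and had the highest sum of 6 keratinocyte markers, 28.7 CPM against a median of 4.78 CPM. Library 77 (WT combination) had the highest sum of 9 macrophage markers, 8053 CPM against a median of 2104 CPM. P-values measure the spread between mice of 1 experiment.

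Timp1 had the highest level per length, 190.1 CPM per kb of exon in the mean of 40 mice. Mmp14 followed at 32.6 CPM per kb, then Mmp13 at 21.0, Mmp2 at 12.0, Mmp12 at 10.4 and Mmp9 at 8.59 CPM per kb. The lengths were unions of all annotated exons, 7237 bases for Mmp12, 2673 for Mmp13 and 3371 for Mmp2, so the order depends on them. In CPM without length, Mmp12 stood at a mean of 74.9, above Mmp13 at 56.1 and Mmp2 at 40.6. Lox stood at 5.26, Mmp3 at 4.37, Mmp8 at 0.951 and Mmp10 at 0.269 CPM per kb. The genes also differed in how far mice differed from each other. Mmp14 varied by 1.71 times between the lowest and the highest mouse and Timp1 by 3.30 times, while Mmp8 varied by 20.2 times, Lox by 19.3 times and Mmp3 by 39.0 times. Mmp10 had 0 counts in 1 library and at most 21 counts in any.

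**Figure D1:**
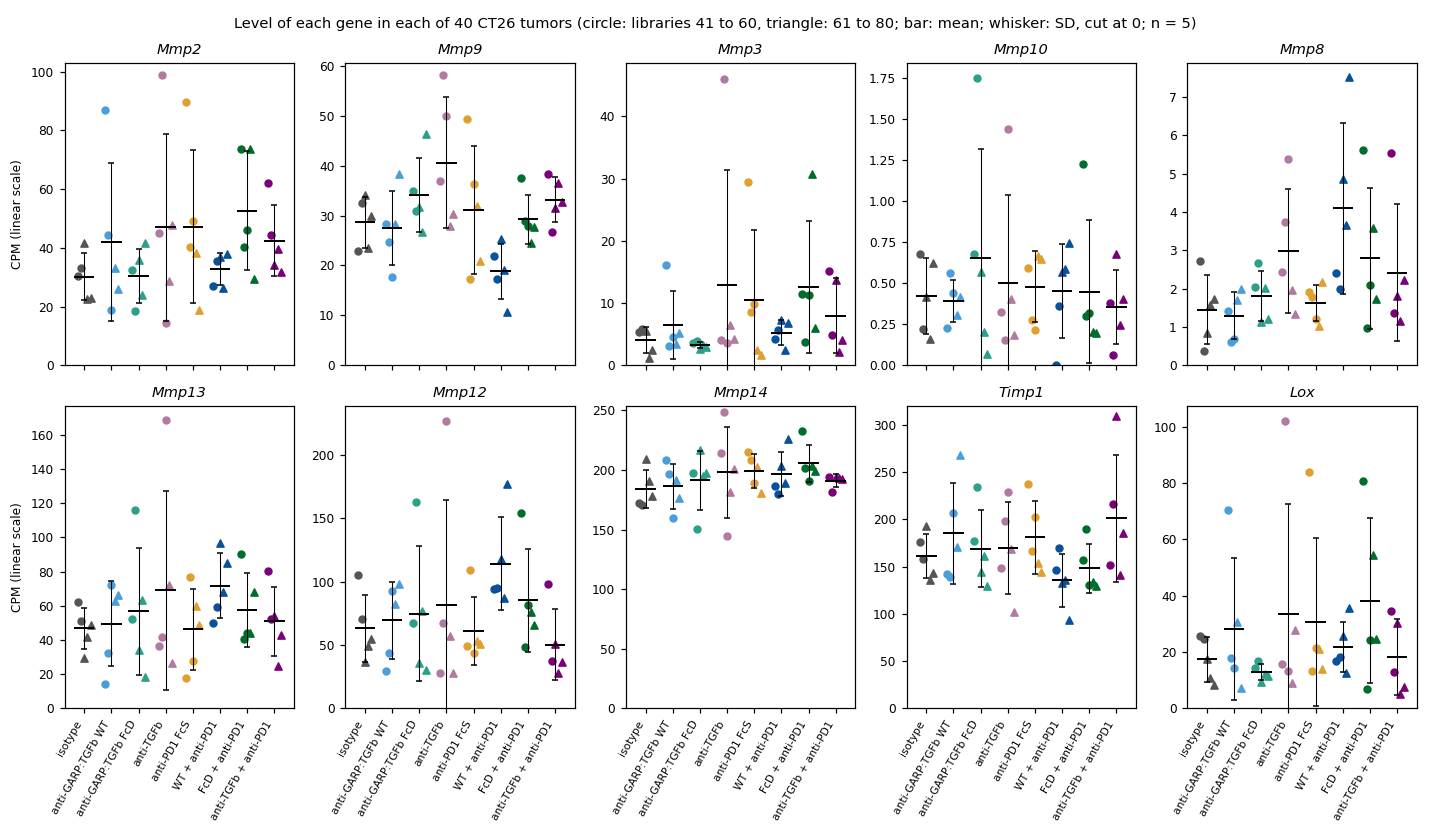
CPM of the 10 genes (y axis, linear) in each of the 40 tumors by treatment group (x axis), with circles for libraries 41 to 60, triangles for 61 to 80, and the mean with SD of 5 mice (whiskers cut at 0). Mmp14 sits between 145.0 and 248 CPM in all tumors, while Mmp3 and Lox are high in single mice of several groups.

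Whether treatment changed any of the genes was tested first over all 8 groups together. With edgeR, 2 of the 9 tested members, Mmp9 and Mmp8, had an unadjusted p under 0.05, as did 24.7% of all genes tested. The adjusted p was 0.136 for Mmp9 (unadjusted p = 0.00571) and 0.148 for Mmp8 (unadjusted p = 0.0141). None of the 9 passed an adjusted p of 0.05, which 0.0271% of all genes did. DESeq2's likelihood ratio test called both, with adjusted p of 0.0283 for Mmp9 and 0.0480 for Mmp8, where it called 7.79% of the 16124 genes that it gave an adjusted p.

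Against the isotype control, 7 of 63 tests of a member had an unadjusted p under 0.05 and 0 of 63 passed after adjustment, as did 0% of all genes in each of the 7 comparisons. The 3 single treatments other than anti-TGFb had 0 of 9 members at an unadjusted p under 0.05, where the share of all genes was 0.969% for anti-GARP:TGFb WT, 0.474% for anti-GARP:TGFb FcD and 0.955% for anti-PD1 FcS. Anti-TGFb had 3 of 9, where 2.32% of all genes reached it, and all 9 fold changes were above 0 with a median of 0.56 on the log2 scale, against a median of 0.01 over all genes. Without library 48 of that group 0 of 9 reached it (all genes 0.853%), 8 of 9 were above 0 with a median of 0.17, and Lox was at -0.08. The WT combination had 2 of 9 (all genes 20.7%), the FcD combination 2 of 9 (16.6%) and the anti-TGFb combination 0 of 9 (20.1%). Median log2 fold changes of the members were 0.33, 0.43 and 0.21 in these 3 combinations, against 0.01, -0.00 and 0.02 over all genes. Read against all genes, the counts of members in the 3 combinations were near or below the background, and the 7 comparisons share the same 5 control mice.

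**Figure D2:**
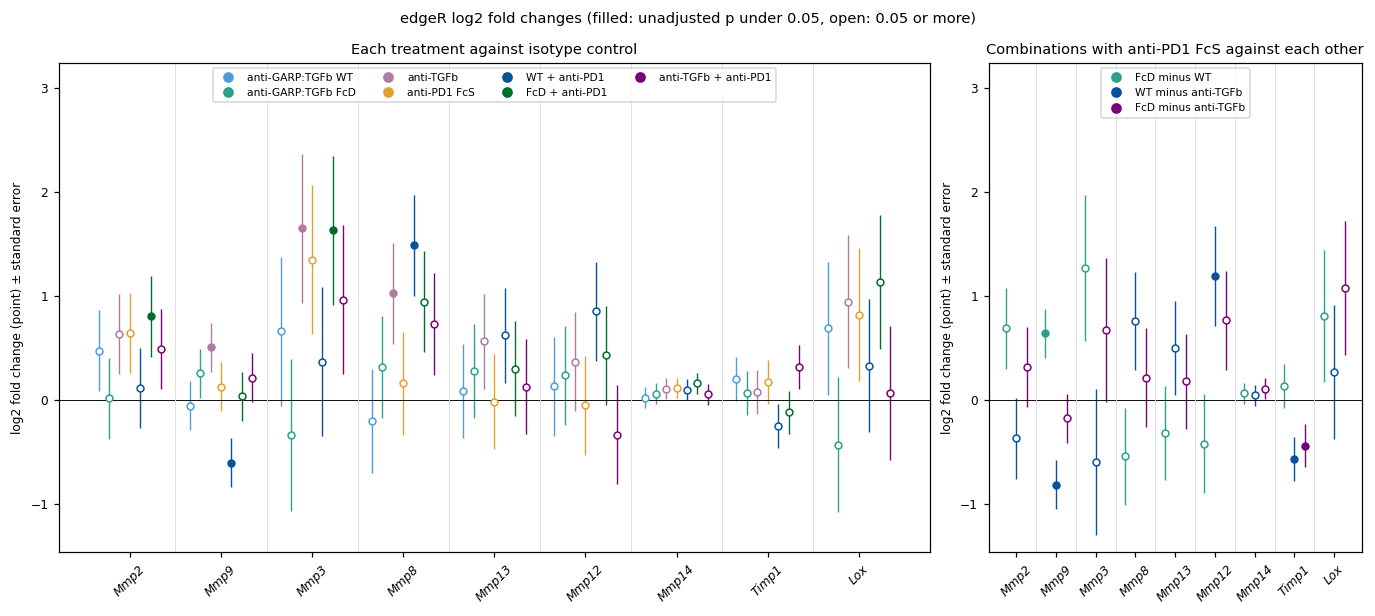
edgeR log2 fold changes with standard errors (y axis) of the 9 tested members (x axis), for each of 7 treatments against isotype control on the left and for the 3 combinations against each other on the right. Filled points have an unadjusted p under 0.05, and Mmp9 lies at -0.60 in the WT combination on the left and at -0.82 for WT minus anti-TGFb on the right.

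The gelatinases Mmp9 and Mmp2 cut denatured collagen and the type IV collagen of basement membranes, and Mmp9 is made by macrophages, neutrophils and many tumor cells. Mmp9 lies alone on chromosome 2 (GRCm38, chr2:164940780-164955850, plus strand). In isotype control tumors it stood at 22.9, 32.6, 34.1, 23.6 and 29.9 CPM, a mean of 28.6 ± 5.12 (SD, n = 5). The WT combination gave 21.95, 17.4, 25.2, 18.996 and 10.6 CPM, a mean of 18.8 ± 5.50, and the anti-TGFb combination gave 38.3, 26.8, 31.5, 36.5 and 32.7 CPM, a mean of 33.2 ± 4.52. All 5 mice of the WT combination lay below all 5 of the anti-TGFb combination, and library 77 was lowest at 10.6 CPM.

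Between these combinations Mmp9 fell by 0.82 on the log2 scale (SE 0.24) in the WT combination, to 0.568 of the level with anti-TGFb + anti-PD1 FcS. The adjusted p of edgeR was 0.0262, the single adjusted call among 171 tests of a member. The groups did not overlap in 1.52% of all genes, and 18.2% of all genes were called and 36.6% had an unadjusted p under 0.05 in the same comparison, against 1 and 3 of 9 members. The exact permutation p of mean log2 CPM was 0.00794 (2-sided), the smallest that the divisions of 10 mice can give. The difference of mean log2 CPM was -0.71 within libraries 41 to 60 and -0.96 within libraries 61 to 80. The call was lost in 5 of 10 refits without 1 mouse of either group (libraries 57, 62, 68, 69 and 77), with adjusted p from 0.0519 to 0.108, while the log2 fold change stayed between -0.95 and -0.67 in all 10. The number of all genes called in this comparison moved in the same refits, from 2684 with all mice to 0 without library 62, 68 or 69, to 213 without library 57, to 1686 without library 77 and to 5309 without library 53, and it was 0 with only these 10 mice in the model. The call of Mmp9 was also lost with no filter on low counts (adjusted p = 0.0516) and with only these 10 mice in the model (adjusted p = 0.164), while DESeq2 gave the lowest adjusted p of 0.0116. In bulk tumors, fewer cells of a type and less RNA per cell cannot be told apart.

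Markers of other cells were counted beside Mmp9. The 9 macrophage markers summed to 1809 to 8053 CPM in the WT combination, where library 77 was highest, to 2406 to 3049 CPM in the anti-TGFb combination and to 1654 to 2436 CPM in isotype controls. At an unadjusted p under 0.05, 2 of 9 were higher in the WT than in the anti-TGFb combination, 7 of 9 higher than in isotype controls and 8 of 9 higher than with anti-PD1 FcS alone, where 36.6%, 20.7% and 17.2% of all genes reached it in either direction. Without library 77 these shares of all genes were 31.4%, 5.85% and 5.42%. Library 64 was next in the WT combination at 3032 CPM, and its other mice lay at 1809 to 2116 CPM, within the range of isotype controls. Of 3 tested keratinocyte markers 1 was lower in the WT than in the anti-TGFb combination, Krt10 with -0.65 on the log2 scale (SE 0.22, adjusted p = 0.0417, lost in 8 of 10 refits without 1 mouse), and 1 to 3 of the 6 keratinocyte markers in the table were at 0 in every mouse of a group. None of the macrophage markers was at 0 in all mice of a group. The part of these cells in the level of Mmp9 was not tested.

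Mmp9 in the WT combination also lay lower than in other groups, without passing after adjustment. Against the isotype control the log2 fold change was -0.60 (SE 0.24, unadjusted p = 0.0154, adjusted p = 0.173), 4 of 5 mice lay below every control mouse, the differences of mean log2 CPM within the library ranges were -0.48 and -0.74, and without library 77 the fold change was -0.45 (unadjusted p = 0.0636). Anti-GARP:TGFb WT alone gave 28.4, 24.7, 17.8, 28.2 and 38.4 CPM and anti-PD1 FcS alone 49.4, 17.3, 36.3, 31.9 and 20.8 CPM, so that both ranges overlapped with that of the WT combination. The log2 fold change of the WT combination was -0.54 against the former (unadjusted p = 0.0280, adjusted p = 0.132) and -0.73 against the latter (unadjusted p = 0.00417, adjusted p = 0.231). Without library 52, an anti-PD1 FcS mouse at 17.3 CPM, the second of these was -0.88 with an adjusted p of 0.0414, in a refit that called 538 of all genes where 0 were called with all mice. Over the 10 refits without 1 mouse of either group the value was -0.88 to -0.51 and the adjusted p 0.0414 to 0.818, with -0.51 without library 47 (adjusted p = 0.507) and -0.58 without library 77 (adjusted p = 0.818), and it was -0.50 without libraries 47 and 48 (adjusted p = 0.418). Within the library ranges the differences of mean log2 CPM were -0.25 and -0.93 against anti-GARP:TGFb WT, and -0.68 and -0.58 against anti-PD1 FcS.

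The FcD combination, which differs from the WT combination in the Fc region of the anti-GARP:TGFb mAb, gave 37.5, 28.8, 27.9, 24.5 and 27.6 CPM of Mmp9, a mean of 29.3 ± 4.89 (SD, n = 5). In it 4 of 5 mice lay above every mouse of the WT combination. The log2 fold change of FcD minus WT was 0.64 (SE 0.24, unadjusted p = 0.0109, adjusted p = 1.00), and Mmp9 was the 1 of 9 members at an unadjusted p under 0.05, where 1.3% of all genes reached it and 0% passed after adjustment. The differences of mean log2 CPM within the library ranges were 0.67 and 0.59. Anti-TGFb alone gave 36.9, 58.2, 50.0, 27.8 and 30.3 CPM, where library 48 and library 59 were highest and 3 of 5 mice lay above every control. Its log2 fold change against isotype was 0.50 (unadjusted p = 0.0384) and 0.34 without library 48, and it was 0.79 within libraries 41 to 60 against 0.01 within 61 to 80 as a difference of mean log2 CPM.

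Mmp2, which is secreted mainly by fibroblasts, stood at 30.5, 33.1, 41.8, 22.7 and 23.0 CPM in isotype controls and at 73.8, 40.2, 46.2, 73.7 and 29.5 CPM in the FcD combination. In the latter 3 of 5 mice lay above every control mouse, and the log2 fold change was 0.80 (SE 0.39, unadjusted p = 0.0467, adjusted p = 0.298). Without library 71 it was 0.65 (unadjusted p = 0.123). Within libraries 41 to 60 the mean log2 CPM differed by 0.69, and within 61 to 80 by 0.73. Over all tumors Mmp2 ranged from 14.4 CPM (library 59) to 98.7 CPM (library 48), both in anti-TGFb tumors.

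The stromelysins Mmp3 and Mmp10 degrade proteoglycans and noncollagenous matrix and activate other pro-MMPs. Isotype control tumors had 5.32, 5.83, 5.55, 1.18 and 2.49 CPM of Mmp3 and the FcD combination 11.46, 3.77, 11.3, 30.7 and 5.97 CPM, with library 71 highest and 4 of 5 mice above every control. The log2 fold change was 1.63 (SE 0.72, unadjusted p = 0.0292, adjusted p = 0.268), and 0.99 without library 71 (unadjusted p = 0.182). Differences of mean log2 CPM were 0.49 and 2.34 within the library ranges. Anti-GARP:TGFb FcD without anti-PD1 FcS gave a narrow range of 3.65, 3.84, 2.62, 3.18 and 2.86 CPM. Adding anti-PD1 FcS to it gave a log2 fold change of 1.97 (SE 0.73, adjusted p = 0.148, 4 of 5 mice above every mouse without it). With only these 10 mice in the model the adjusted p was 0.0488 (476 genes called in all, against 0 with all mice in the model), the lowest of the settings tried, where no filter gave the highest at 0.283, and without library 71 the fold change was 1.32 with an adjusted p of 0.441, while over the 10 refits without 1 mouse the adjusted p was 0.0594 to 0.441. The differences of mean log2 CPM within libraries 41 to 60 and 61 to 80 were 1.05 and 2.19.

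Anti-TGFb tumors had 3.997, 46.0, 3.65, 6.53 and 4.17 CPM of Mmp3, where library 48 was far above the others. The log2 fold change against isotype was 1.65 (unadjusted p = 0.0275) with library 48 and 0.17 (unadjusted p = 0.798) without it. In the anti-PD1 FcS group, library 47 was highest at 29.5 CPM. The interaction of anti-TGFb with anti-PD1 FcS was -2.04 on the log2 scale with all mice (unadjusted p = 0.0484). It was -0.56 without library 48, -1.14 without library 47 and 0.33 without both (unadjusted p = 0.694).

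Mmp10 stood at 0.680, 0.224, 0.417, 0.157 and 0.623 CPM in isotype controls and 1.23, 0.302, 0.321, 0.202 and 0.199 CPM in the FcD combination, with library 44 highest. Fitted without a filter, its log2 fold changes lay between -0.69 and 0.58 over the 19 comparisons, with SE from 0.64 to 0.93 and unadjusted p of 0.370 or more.

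Markers of other cells were counted beside Mmp3, Mmp2 and Lox. The summed level of 5 adipocyte markers was 70.4 to 682 CPM in the FcD combination, 27.3 to 114 CPM in isotype controls and 31.7 to 88.96 CPM with anti-GARP:TGFb FcD alone, and 5 of 5 markers were higher than in isotype controls at an unadjusted p under 0.05, which 16.6% of all genes reached in either direction. The 9 fibroblast markers summed to 1829 to 3387 CPM, 2137 to 2644 CPM and 1794 to 2666 CPM in the same order, with 3 of 9 higher at that threshold, among them the collagen-binding proteoglycans Dcn and Lum. The 9 neutrophil markers summed to 63.2 to 295 CPM, 38.7 to 99.8 CPM and 29.3 to 69.4 CPM in that order, and of 8 tested ones 6 were higher than in isotype controls and 7 higher than with anti-GARP:TGFb FcD alone, where 20.9% of all genes reached the threshold. Of 3 tested keratinocyte markers 2 were higher. Library 71 had the highest sums of adipocyte and keratinocyte markers in the FcD combination. In the same order of groups, the 9 macrophage markers summed to 2215 to 3487 CPM, 1654 to 2436 CPM and 1380 to 2371 CPM. The 5 endothelial markers summed to 94.3 to 212 CPM, 84.8 to 116 CPM and 80.4 to 146 CPM. None of the markers of fibroblasts, adipocytes and neutrophils was at 0 in all mice of any group. The part of these cells in the levels of Mmp2, Mmp3 and Lox was not tested.

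The collagenase Mmp8 is stored in neutrophil granules and cuts fibrillar collagen. It was low, with 5 to 121 counts per tumor. Isotype controls had 2.72, 0.374, 0.833, 1.57 and 1.73 CPM, a mean of 1.45 ± 0.901 (SD, n = 5), anti-GARP:TGFb WT alone had 1.42, 0.613, 0.693, 1.70 and 2.003 CPM, a mean of 1.29 ± 0.614, and the WT combination had 2.41, 2.003, 4.87, 3.65 and 7.53 CPM, a mean of 4.09 ± 2.23. The WT combination overlapped with isotype controls through library 46 at 2.72 CPM, and it met anti-GARP:TGFb WT alone, since the lowest mouse of the former (library 55) and the highest of the latter (library 73) both lay at 2.003 CPM. On the CPM scale library 55 was higher by less than that rounding, and on the log2 CPM scale with a prior count it was lower, at 1.10 against 1.11.

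Adding anti-PD1 FcS to anti-GARP:TGFb WT gave a log2 fold change of Mmp8 of 1.69 (SE 0.49), with an adjusted p of 0.0963 in edgeR and of 0.0470 in DESeq2 (0 and 332 of all genes called), and up to 0.186 in the other settings tried (no filter). By CPM the groups did not overlap, as was the case in 5.65% of all genes, while by the log2 CPM of the exact permutation test they did (p = 0.0159, 2-sided). The differences of mean log2 CPM were 1.24 within libraries 41 to 60 and 1.40 within 61 to 80. Without library 55, a mouse of the WT combination, the fold change was 1.87 and edgeR's adjusted p 0.0418, in a refit that called 1707 of all genes. Over the 10 refits without 1 mouse of either group the fold change was 1.35 to 1.89 and the adjusted p 0.0418 to 0.320, with the lowest fold change and the highest adjusted p without library 77. Against isotype the fold change was 1.49 (SE 0.48, unadjusted p = 0.00408, adjusted p = 0.159, 3 of 5 mice above every control, differences within the library ranges 0.95 and 1.85), and against anti-PD1 FcS alone it was 1.33 (unadjusted p = 0.00910, adjusted p = 0.231, 4 of 5 mice above). The interaction of anti-GARP:TGFb WT with anti-PD1 FcS, the test of whether adding anti-PD1 FcS changed Mmp8 more with this mAb than without it, was 1.53 (SE 0.69, unadjusted p = 0.0340, adjusted p = 0.483).

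Neutrophil markers were counted in the same groups. The 9 markers in the table summed to 76.7 to 274 CPM in the WT combination, 38.7 to 99.8 CPM in isotype controls and 41.9 to 77.2 CPM with anti-GARP:TGFb WT alone. Against the latter, 3 of 8 tested markers were higher in the WT combination at an unadjusted p under 0.05, where 29.5% of all genes reached it in either direction, and none was at 0 in all mice of any group. The sums were also high in the FcD combination (63.2 to 295 CPM) and the anti-TGFb combination (55.4 to 215 CPM), where Mmp8 stood at 5.62, 0.980, 2.08, 3.57 and 1.73 CPM and at 5.53, 1.36, 1.81, 1.15 and 2.22 CPM. Both of these ranges of Mmp8 overlapped with isotype controls. Between the WT and the anti-TGFb combination the log2 fold change of Mmp8 was 0.76 (SE 0.47, adjusted p = 0.238), and 1.302 with an adjusted p of 0.0341 without library 53, which was the highest of the anti-TGFb combination, in a refit that called 5309 of all genes against 2684 with all mice. That was the 1 of 10 such refits with an unadjusted p under 0.05, and in the other 9 the adjusted p was 0.140 or more, with the lowest fold change, 0.42, without library 77 (adjusted p = 0.592). Anti-TGFb alone gave 2.45, 3.74, 5.39, 1.95 and 1.35 CPM of Mmp8, with 2 of 5 mice above every control and a log2 fold change against isotype of 1.02 (unadjusted p = 0.0426), or 0.69 without library 59. Its neutrophil markers summed to 44.3 to 386 CPM, and 4 of 8 were higher than in isotype controls at an unadjusted p under 0.05, where 2.32% of all genes reached it. Only library 48, at 386 CPM, lay above the range of isotype controls. The next mouse, library 59, stood at 63.4 CPM. The part of neutrophils in these values was not tested.

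**Figure D3:**
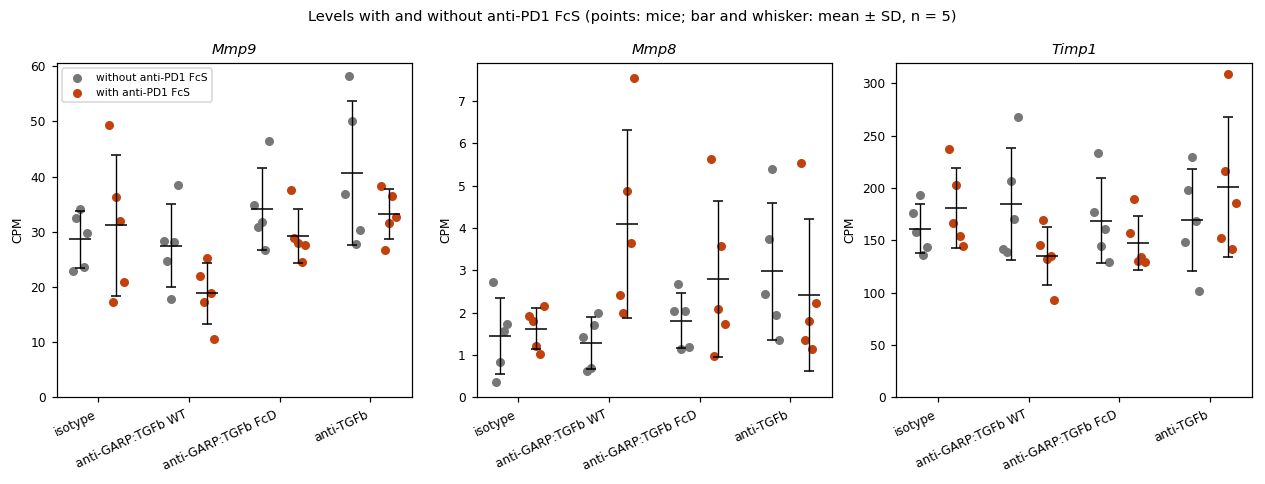
CPM of Mmp9, Mmp8 and Timp1 (y axes) in tumors without anti-PD1 FcS (grey) and with it (orange) for isotype control, anti-GARP:TGFb WT, anti-GARP:TGFb FcD and anti-TGFb (x axis), the orange points over isotype being the anti-PD1 FcS group. With anti-GARP:TGFb WT the mean of Mmp9 was 27.5 CPM without and 18.8 CPM with anti-PD1 FcS, and that of Mmp8 was 1.29 CPM without and 4.09 CPM with it.

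Anti-PD1 FcS was added to each of the other mAbs in 3 such comparisons, in which 5 of 27 tests of a member had an unadjusted p under 0.05 and 0 of 27 passed after adjustment, as did 0% of all genes. The count was 3 of 9 with anti-GARP:TGFb WT (all genes 29.5%), 2 of 9 with anti-GARP:TGFb FcD (20.9%) and 0 of 9 with anti-TGFb (9.84%). Compared with anti-PD1 FcS alone, the counts were 2 of 9 for the WT combination (17.2%), 0 of 9 for the FcD combination (10.7%) and 0 of 9 for the anti-TGFb combination (17.1%), and 0.00678% of all genes passed after adjustment in the last of these and 0% in the others. The interactions gave 2 of 9 for anti-GARP:TGFb WT (8.75%), 0 of 9 for anti-GARP:TGFb FcD (4.49%) and 1 of 9 for anti-TGFb (2.3%), with 0% of all genes after adjustment in each.

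Mmp13, the main interstitial collagenase of mice, and Mmp12, the elastase of macrophages, lie next to each other in the cluster. Mmp13 stood at 62.2, 51.1, 29.4, 42.0 and 49.0 CPM in isotype controls and ranged from 14.2 to 169 CPM over all tumors. Its unadjusted p was 0.05 or more in all 19 comparisons. Mmp12 stood at 105, 70.5, 36.9, 49.0 and 54.6 CPM in isotype controls, 93.9, 94.9, 118, 87.3 and 176.6 CPM in the WT combination and 98.1, 37.2, 50.8, 28.2 and 36.6 CPM in the anti-TGFb combination. Between these combinations 2 of 5 mice of the former lay above every mouse of the latter.

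The log2 fold change of Mmp12 between the WT and the anti-TGFb combination was 1.19 (SE 0.48, adjusted p = 0.0756). The adjusted p was 0.0483 with the library range as a covariate, 0.164 with only these 10 mice in the model, 0.0160 without library 53 of the anti-TGFb combination (98.1 CPM) and 0.174 without library 77 of the WT combination (176.6 CPM), in refits that called 2802, 0, 5309 and 1686 of all genes in this order. The 9 refits without 1 mouse other than library 53 gave an adjusted p of 0.0639 or more, and over all 10 the fold change was 0.97 to 1.57. The differences of mean log2 CPM were 0.64 within libraries 41 to 60 and 1.70 within 61 to 80. The macrophage markers given beside Mmp9 were also highest in library 77. The annotation places Mmp12 over Mmp1b on the other strand, and since the strand setting of the counting was not given in the sources used here, reads of the overlapping part could not be told apart.

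Mmp14, the membrane-bound MMP that activates pro-Mmp2 at the cell surface, was the most even member. It stood at 172, 171, 209, 191 and 178 CPM in isotype controls and between 145.0 and 248 CPM in all tumors, and its unadjusted p was 0.05 or more in all 19 comparisons.

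Timp1, which inhibits most secreted MMPs, stood at 176, 158, 193, 136 and 143 CPM in isotype controls, 142, 139, 206, 170.3 and 268 CPM with anti-GARP:TGFb WT, 146, 170.0, 132, 136 and 93.5 CPM in the WT combination and 152, 217, 309, 141 and 186 CPM in the anti-TGFb combination. In the WT combination 3 of 5 mice lay below every isotype control and the other 2 within their range, and the same 3 lay below every mouse of the anti-TGFb combination, in which library 62 was highest at 309 CPM. The log2 fold change between these combinations was -0.57 (SE 0.21), with an adjusted p of 0.0550 in edgeR. DESeq2 gave 0.0400, the fit with the library range as a covariate 0.0438, the fit without libraries 47 and 48 0.0497, and the fit of only these 10 mice 0.170. Without library 62 the fold change was -0.37 (adjusted p = 0.254), and without library 53, 55 or 66 the adjusted p was 0.0184, 0.0297 or 0.0468, in refits that called 5309, 3898 or 1422 of all genes. In the other 7 of these 10 refits it was 0.0605 or more. The differences of mean log2 CPM were -0.20 within libraries 41 to 60 and -0.76 within 61 to 80.

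Timp1 differed between the FcD and the anti-TGFb combination by -0.44 on the log2 scale (unadjusted p = 0.0443, adjusted p = 0.150), the 1 of 9 members at an unadjusted p under 0.05 there, where 31.2% of all genes reached it and 6.46% passed after adjustment. The latter share depended on single mice, with 954 genes called with all mice, 0 in 8 of 10 refits without 1 mouse of either group, 4256 without library 50, 4612 without library 53 and 0 with only these 10 mice in the model. Without library 62 the difference of Timp1 was -0.24. Adding anti-PD1 FcS to anti-GARP:TGFb WT gave -0.45 (unadjusted p = 0.0405, adjusted p = 0.154), or -0.29 without library 73, with differences of mean log2 CPM of -0.02 within libraries 41 to 60 and -0.85 within 61 to 80. The interaction of that mAb with anti-PD1 FcS was -0.62 (unadjusted p = 0.0462, adjusted p = 0.483). Timp1 overlaps Syn1, a neuronal gene of the other strand, on chromosome X.

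Lox stood at 25.8, 24.7, 17.6, 10.7 and 8.17 CPM in isotype controls, 14.4, 16.8, 9.49, 12.2 and 11.7 CPM with anti-GARP:TGFb FcD and 80.8, 7.01, 24.4, 54.3 and 24.6 CPM in the FcD combination. In the latter, libraries 44 and 71 were high, 4 of 5 mice lay above every mouse of anti-GARP:TGFb FcD and 1 lay below them all. Adding anti-PD1 FcS to anti-GARP:TGFb FcD gave a log2 fold change of 1.57 (SE 0.65, unadjusted p = 0.0218, adjusted p = 0.179), and 1.10 without library 44 (unadjusted p = 0.109). Within libraries 41 to 60 the mean log2 CPM differed by 0.63, and within 61 to 80 by 1.71. Single mice of other groups were as high, with 102 CPM in library 48, 83.8 CPM in library 47 and 70.5 CPM in library 42, which were the 3 tumors with the highest fibroblast marker sums. The annotation also holds an antisense gene over Lox, whose reads could not be told apart without the strand setting.

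How the members varied among mice of the same treatment was examined with the group means subtracted, over 40 mice and on the log2 CPM scale. Of 108 relations, 36 between members and 72 with the mean level of a marker list, 31 had an adjusted p of Pearson's r under 0.05 (permutation within groups), 10 of them between members. All values of a mouse come from the same library and share its normalization. Permutations could give no p below 1e-05.

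Mmp2, Mmp3, Lox and Mmp14 each followed the fibroblast markers, with r from 0.70 to 0.89, but not each other in every pair. Mmp2 followed the 9 fibroblast markers with r = 0.89 and rho = 0.87 (permutation p = 1e-05 for both, adjusted p = 9.82e-05 and 1.35e-04), and r was 0.85 without libraries 47 and 48. Lox followed the 5 adipocyte markers with r = 0.88 and rho = 0.89 (permutation p = 1e-05 for both, adjusted p = 9.82e-05 and 1.35e-04, r = 0.85 without the same mice), and the fibroblast markers with r = 0.85 and rho = 0.80 (same permutation p, r = 0.80 without them). Mmp3 and Lox were related with r = 0.78 and rho = 0.73 (permutation p = 1e-05 for both, r = 0.70 without them). Mmp14 followed its substrate Mmp2 with r = 0.76 and rho = 0.67 (permutation p = 1e-05 and 4e-05, adjusted p = 9.82e-05 and 3.32e-04), and r was 0.70 without libraries 58 and 59. Mmp14 and Lox were related with r = 0.43 and rho = 0.38 (adjusted permutation p = 0.0446 and 0.0834), and r was 0.30 without libraries 47 and 48. Mmp3 and Mmp14 were not related at that threshold, with r = 0.35 and rho = 0.21 (adjusted permutation p = 0.146 and 0.335).

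Mmp12, Mmp13 and Mmp8 were related in pairs. Mmp12 and Mmp13 were the most closely related pair of members, with r = 0.87 and rho = 0.86 (permutation p = 1e-05 for both, adjusted p = 9.82e-05 and 1.35e-04), and r was 0.83 without libraries 58 and 59. In anti-TGFb tumors, library 59 held the highest level of both, 227 CPM of Mmp12 and 169 CPM of Mmp13, and the lowest of Mmp2. Mmp8 was related to Mmp12 with r = 0.64 and rho = 0.62 (permutation p = 6e-05 and 2e-04, adjusted p = 4.05e-04 and 0.00127, r = 0.61 without libraries 58 and 59) and to the neutrophil markers with r = 0.49 and rho = 0.45 (permutation p = 0.00519 and 0.00803, adjusted p = 0.0219 and 0.0343, r = 0.46 without libraries 46 and 48). With the means of each group and library range subtracted, the adjusted p of Mmp8 with Mmp13 (r = 0.45) went from 0.0143 to 0.142 and that of Mmp8 with the neutrophil markers to 0.0518 for r, which itself was 0.52, and to 0.0348 for rho. Mmp12 also followed the neutrophil markers, with r = 0.50 and rho = 0.61 (adjusted permutation p = 0.0362 and 8.1e-04), which became 0.407 and 0.0899 with the library range subtracted, while r of Mmp13 with them was 0.23. Mmp13 went against Mmp2, with r = -0.61 and rho = -0.50 (permutation p = 9.7e-04 and 0.00487, adjusted p = 0.00524 and 0.0229), and r was -0.46 without libraries 42 and 59.

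Neither Mmp12 nor Mmp13 followed the 9 macrophage markers at an adjusted p under 0.05, with r = 0.14 and rho = 0.15 (permutation p = 0.426 and 0.391) for the elastase of macrophages. Timp1 went against these markers, with r = -0.45 and rho = -0.45 (permutation p = 0.00937 and 0.00886, adjusted p = 0.0361 and 0.0354), and r was -0.50 without libraries 48 and 77. With the library range subtracted as well, r was -0.42 and the adjusted p were 0.0673 and 0.0713. Mmp9 was related to no other member at that threshold.

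**Figure D4:**
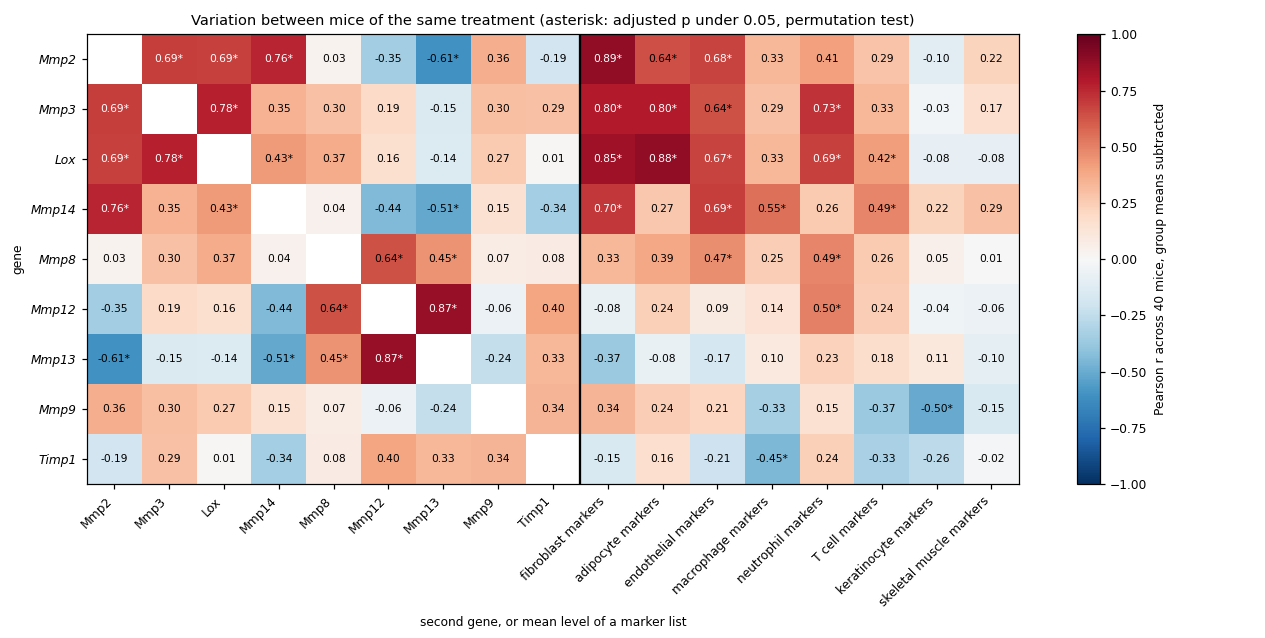
Pearson r (color and number) across 40 mice, with group means subtracted, between the 9 tested members (rows) and each other or 8 lists of cell type markers (columns), with an asterisk for an adjusted permutation p under 0.05. Mmp2, Mmp3, Lox and Mmp14 each lie at r from 0.70 to 0.89 with the fibroblast markers, while Mmp3 with Mmp14 is at 0.35, and Mmp12 with Mmp13 stands out at 0.87.

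**Figure D5:**
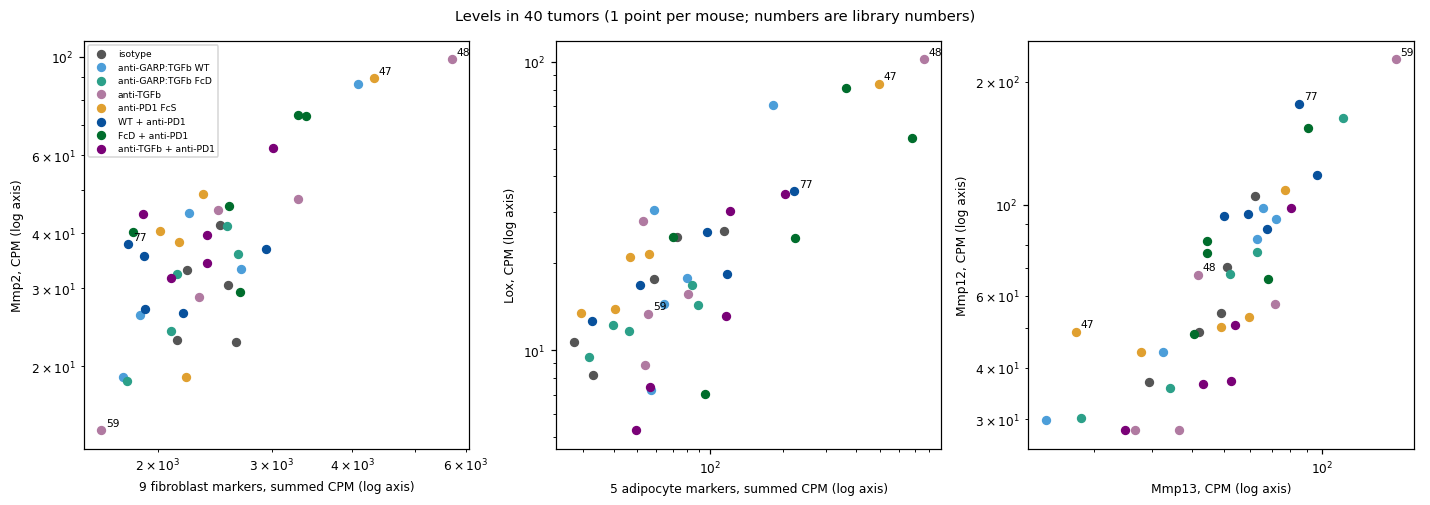
Levels in 40 tumors on log axes, 1 point per mouse colored by group: Mmp2 against the summed CPM of 9 fibroblast markers, Lox against that of 5 adipocyte markers, and Mmp12 against Mmp13. Libraries 47 and 48 are at the upper end of the first 2 panels, and library 59 has the highest Mmp12 and Mmp13.

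The genes most like each member across the 40 mice are given as a description, as the 3 with the highest Pearson r of log2 CPM among all tested genes that are not members. For Mmp2 they were Col3a1 (0.87), Lum (0.86) and Dcn (0.85), for Mmp3 Cpxm1 (0.90), Cyp1b1 (0.89) and Rcn3 (0.88) and for Lox Fstl1 (0.94), Loxl2 (0.94) and Col5a2 (0.93). Several of these encode fibrillar collagens or proteins that bind them, the 3 of Mmp2 are also among the fibroblast markers, and Loxl2 is a relative of Lox. For Mmp13 they were Soat1 (0.80), Gzmf (0.78) and Slc16a3 (0.77) and for Mmp12 Soat1 (0.80), Gzmf (0.80) and Fcrl6 (0.80), so that Soat1, which esterifies cholesterol, and the granzyme Gzmf were named by both. For Mmp8 they were Sema6a (0.74), RP23-371B13.4 (0.72) and Atp6v0d2 (0.71), for Mmp14 Arhgap24 (0.78), Emilin1 (0.78) and Flt4 (0.76), for Mmp9 Bmp1 (0.71), Nek6 (0.71) and Serpinf1 (0.64) and for Timp1 Parl (0.88), Rpl22 (0.85) and Serpinb6a (0.84). The values for Mmp9 and Mmp8 were the lowest of the 9 members.

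Other genes of matrix turnover were followed in lists. Of 15 other MMPs 7 were tested, and in the WT combination against isotype 2 were higher and 1 lower at an unadjusted p under 0.05 (all genes 20.7%), among them Mmp19 (0.64 on the log2 scale, SE 0.24, adjusted p = 0.162). The FcD combination had 3 higher and 1 lower (all genes 16.6%), again with Mmp19 (0.66, SE 0.24) and with Mmp25, a neutrophil MMP (1.05, SE 0.43). Of 11 tested inhibitors and regulators of MMPs, 3 were higher in the WT combination and 4 higher and 1 lower in the FcD combination, against the same shares of all genes, with the matrix-bound inhibitor Timp3 at 0.73 (SE 0.30) and 1.00 (SE 0.30). None of these passed after adjustment.

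Between the WT and the anti-TGFb combination, where 18.2% of all genes were called, 2 of 14 genes of collagen cross-linking passed after adjustment. Plod2, a lysyl hydroxylase, was higher by 0.55 on the log2 scale (SE 0.19, adjusted p = 0.0421), and Pcolce, an enhancer of procollagen processing, fell by 0.64 (SE 0.18, adjusted p = 0.0251). Of 16 tested ADAM and ADAMTS proteases 1 passed, Adam10 with 0.53 (SE 0.18, adjusted p = 0.0422), and with 0.26 without library 77. Among 18 tested inducers of MMP transcription, Runx2, a factor known to act on Mmp13, rose (0.37, SE 0.11, adjusted p = 0.0279), and Rela, a subunit of NF-κB, fell (-0.24, SE 0.08, adjusted p = 0.0459). Runx2 was also higher in the FcD than in the anti-TGFb combination (0.41, adjusted p = 0.0447), where 6.46% of all genes were called. All of these calls depended on single mice. Of the 10 refits without 1 mouse of either group, the call was lost in 8 for Plod2 (adjusted p up to 0.128), 5 for Pcolce (0.108), 7 for Adam10 (0.275), 8 for Rela (0.145) and 6 for Runx2 (0.115), and in 8 for Runx2 between the FcD and the anti-TGFb combination (0.187). None of them held with only the compared groups in the model (adjusted p from 0.163 to 0.188), and Pcolce alone held with no filter on low counts (0.0473). The list medians of log2 fold changes between the WT and the anti-TGFb combination were 0.14, 0.27 and 0.22 for collagen cross-linking, ADAM and ADAMTS proteases and inducers, against 0.04 over all genes. Of 6 tested genes of plasminogen activation 0 passed, and 0 had an unadjusted p under 0.05 in this comparison.

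Inducers of MMP transcription were also counted against isotype. Of 18 tested, 5 were higher and 1 lower in the WT combination, 9 higher and 1 lower in the FcD combination, and 4 higher and 1 lower in the anti-TGFb combination at an unadjusted p under 0.05, where 20.7%, 16.6% and 20.1% of all genes reached it. The median log2 fold changes of the list were 0.10, 0.26 and 0.11 in this order, against 0.01, -0.00 and 0.02 over all genes. The cytokine Tnf was at 0.93 (SE 0.34) in the WT and 1.16 (SE 0.34) in the FcD combination, and the AP-1 subunit Fosb at 0.81 (SE 0.27) and 0.86 (SE 0.27). None passed after adjustment, with adjusted p of 0.161 and 0.225 for Tnf and of 0.159 and 0.225 for Fosb.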

How the data were processed

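RNA of 40 CT26 tumors was sequenced from stranded mRNA libraries. The deposited values were whole-number read counts per gene, which the authors made with STAR 2.5.3a, SAMtools 1.6 and HTSeq 0.9.1 on mouse genome GRCm38, per the submitters' processing notes. The strand setting and the annotation version were not given in the sources used here. All 40 sample columns were mapped by their titles, and 0 other columns of per-sample values remained. Totals ranged from 11931730 to 20680548 counts. In chi-square tests of counts over genes, mice of the same group always differed by more than sampling noise (chi-square over its degrees of freedom at least 5.44, median 18.8 over 80 pairs).

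Genes were filtered with filterByExpr and fitted with edgeR 4.0.16 (R 4.3.3, TMM, quasi-likelihood test, a mean for each of the 8 groups over all 40 mice), with Benjamini-Hochberg adjustment over the 14760 genes tested in each comparison and a threshold of 0.05. The 19 comparisons were each treatment against isotype, each combination against anti-PD1 FcS and against its own mAb alone, the 3 interactions and the combinations against each other. Exact permutation tests of 2 groups of 5 used log2 CPM with a prior count of 2, and their smallest p is 0.00794. Correlations were tested with 100000 permutations of mice within groups (scipy 1.17.1, numpy 2.4.6). Scripts were tested on simulated counts. Alternatives were DESeq2 1.42.0, its size factors in edgeR, no filter, only the compared groups, the library range as a covariate, a prior count of 0.5, each mouse left out, and, chosen after seeing the data, libraries 47 and 48 left out together.

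The members and the lists of genes and markers were chosen with earlier results of these data known. Members with an unadjusted p under 0.05 in a comparison are described in full, and at most 4 genes of a list by the smallest p. The mice are the replicates. Promoters and motifs came from RefSeq (GRCm38.p6) and exon lengths from the GRCm38 annotation in GENCODE. Exact permutation and counting values cover the spread between mice only.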

Additional observations from a re-analysis of the deposited data

Results flagged for a closer look

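Dixon's criterion was applied to CPM without a log. Chance meets it in about 1 in 20 groups of normally distributed values. That distribution was not tested here, and the pairs share the same mice, so this rate is no background for the number of pairs. In 11 of 80 pairs of a member and a group, 1 mouse lay far from the other 4 by this criterion. For Mmp3 these were library 42 of anti-GARP:TGFb WT at 16.2 CPM (next mouse 5.17), library 48 of anti-TGFb at 46.0 CPM (next 6.53) and library 71 of the FcD combination at 30.7 CPM (next 11.46). For Lox they were library 48 of anti-TGFb at 102 CPM (next 28.0) and library 47 of anti-PD1 FcS at 83.8 CPM (next 21.6). Mmp12 stood apart in library 59 of anti-TGFb at 227 CPM (next 67.6) and in library 52 of anti-PD1 FcS at 109 CPM (next 53.2). Mmp8 stood apart in library 53 of the anti-TGFb combination at 5.53 CPM (next 2.22). Mmp10, with few counts, stood apart in library 59 of anti-TGFb at 1.44 CPM (next 0.404) and in library 44 of the FcD combination at 1.23 CPM (next 0.321). In the anti-TGFb combination, library 57 was lowest for Mmp14 at 181 CPM, close to the next mouse at 193 CPM in a narrow group.

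The difference of Mmp9 between the WT and the anti-TGFb combination, -0.82 on the log2 scale, is listed because the effects of both mAbs given with anti-PD1 FcS differed by a test of the difference itself. In that comparison 18.2% of all genes were called against 1 of 9 members, and the call of Mmp9 was lost in 5 of 10 refits without 1 mouse, with no filter (adjusted p = 0.0516) and with only the compared groups (adjusted p = 0.164).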

How the results depend on the processing

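No paired analysis was possible because the labels number each mouse once and share no replicate numbers between groups. The number of tests of a member past a threshold depended on the processing as follows, with the values as reported in brackets. With DESeq2, 2 members passed after adjustment over the 8 groups (0), where 7.79% of all genes did, 1 test did on adding anti-PD1 FcS to anti-GARP:TGFb WT (0, all genes 2.42%) and 2 did between the WT and the anti-TGFb combination (1, all genes 21.3% against 18.2% as reported). With no filter on low counts, 0 passed between combinations, where 2.71% of all genes did for the WT and the anti-TGFb combination. With the library range as a covariate, 3 passed between these (all genes 19%), and 1 interaction, that of anti-GARP:TGFb WT, had an unadjusted p under 0.05 (3, all genes 8.79%). With only the compared groups, 0 passed between combinations (all genes 0%), 1 did on adding anti-PD1 FcS to anti-GARP:TGFb FcD (all genes 3.49%), and 4 tests against anti-PD1 FcS had an unadjusted p under 0.05 (2, all genes 6.89% to 15.2%). Without libraries 47 and 48, 2 passed between the WT and the anti-TGFb combination (all genes 20%). Mmp10 passed the filter in this refit, but had no unadjusted p under 0.05 between combinations. Of the 27 tests of the other members between combinations, 8 had an unadjusted p under 0.05 (5). Of these 3 were between the WT and the anti-TGFb, 3 between the FcD and the WT and 2 between the FcD and the anti-TGFb combination, where 37.8%, 1.92% and 32.6% of all genes reached it. In the same refit 1 interaction reached it (3, all genes 4.09%), while the interaction of anti-TGFb with anti-PD1 FcS for Mmp3 turned from -2.04 to 0.33. Leaving out each mouse in turn gave 0 to 4 adjusted calls between combinations (4 without library 53, 0 without library 57, 62, 68, 69 or 77, where the number of all genes called was 5309, 213, 0, 0, 0 and 1686 between the WT and the anti-TGFb combination), 0 to 2 over the 8 groups, 0 to 1 against anti-PD1 FcS, 0 to 1 on adding it, and 0 to 0 against isotype and for interactions. At an unadjusted p under 0.05 these ranges were 3 to 8, 1 to 3, 1 to 4, 3 to 7, 2 to 9 and 0 to 6 in the same order. Of the values of single members, 1018 were the same, 863 of them in refits without 1 mouse of any group, compared or not. For fold changes, the same meant an equal direction and side of the adjusted threshold, which 18 passed newly and 7 no longer did, while 1 turned its sign. For differences within a library range it meant a move of less than 1 SD of the first group, which held for 16 in each range and not for 3 in each. The causes were not tested. Depth limits Mmp10 (0 to 21 counts) and Mmp8 (5 to 121 counts) most.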

Other observations

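Mmp14, Mmp3 and Mmp9 also varied with other lists of cell type markers. Mmp14 followed the 5 endothelial markers among mice of the same treatment with r = 0.69 and rho = 0.69 (permutation p = 1e-05 for both, adjusted p = 9.82e-05 and 1.35e-04), and r was 0.61 without libraries 48 and 77. Mmp3 followed the neutrophil markers with r = 0.73 and rho = 0.70 (permutation p = 4e-05 and 2e-05, adjusted p = 3.09e-04 and 2.16e-04), and r was 0.66 without libraries 46 and 48. Mmp9 went against the keratinocyte markers with r = -0.50 and rho = -0.45 (permutation p = 0.00191 and 0.00465, adjusted p = 0.00938 and 0.0228), or -0.42 without libraries 52 and 71. Members that followed the fibroblast markers also followed others. Mmp3 was related to the adipocyte markers with r = 0.80 and rho = 0.70, as closely as to the fibroblast markers (r = 0.80 and rho = 0.70), and to the endothelial markers with r = 0.64 and rho = 0.61. Lox was related to the neutrophil markers with r = 0.69 and rho = 0.60 and to the endothelial markers with r = 0.67 and rho = 0.61. Mmp2 was related to the endothelial markers with r = 0.68 and rho = 0.67 and to the adipocyte markers with r = 0.64 and rho = 0.59. In these relations the adjusted permutation p was at most 5.12e-04 for r and 0.00222 for rho, and r was 0.51 to 0.71 without the 2 mice farthest from the median.

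Skeletal muscle transcripts were highest in library 52 of anti-PD1 FcS, with a sum of 159 CPM over 5 markers against a median of 2.28 CPM and 15.2 CPM in the next mouse. The 6 T cell markers were highest in library 77 at 245 CPM against a median of 40.4 CPM.

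In all, 22 of the 31 called relations kept an adjusted p of r under 0.05 when the means of each group and library range were subtracted, and all 31 kept their sign without the 2 mice farthest from the median. The 9 that lost the adjusted p are given with r before and after, then the adjusted p. They were Mmp14 with the T cell (0.49 to 0.54, 0.0544) and macrophage markers (0.55 to 0.58, 0.0673) and with Mmp13 (-0.51 to -0.52, 0.154), Mmp8 with the neutrophil (0.49 to 0.52, 0.0518) and endothelial markers (0.47 to 0.38, 0.155) and with Mmp13 (0.45 to 0.33, 0.142), Timp1 with the macrophage markers (-0.45 to -0.42, 0.0673), Lox with the T cell markers (0.42 to 0.40, 0.216) and Mmp12 with the neutrophil markers (0.50 to 0.38, 0.407).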
